A study of Mus musculus with 11 samples.

Results

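The comparison is between a pair of control lines that carry different hairpins, each against a gene that mice lack: 4 shGFP arrays (numbered 1, 2, 3 and 5) and 3 shLuciferase arrays (numbered 1, 2 and 4), together 7 of the 11 arrays of the series. Every gene of the array was kept, which gave 15803 genes, each with the mean log2 value of all probe sets that carry its symbol alone. Both groups are NSC34, a line made by fusing mouse neuroblastoma cells with embryonic spinal cord neurons and used as a motor neuron model. Per the labels, the cells were transfected with a pSUPERIOR vector that expresses a short hairpin RNA, puromycin selected the cells, and stable clones were isolated. The shGFP hairpin is directed at green fluorescent protein and the shLuciferase hairpin at Renilla luciferase, so neither has an intended mouse target. The remaining 4 arrays (shTardbp 1 to 4) come from NSC34 cells with a hairpin against Tardbp, carried in the same vector under the same selection. Whether a group's arrays are separate clones, separate cultures or repeats of 1 culture is not stated. The p-values therefore cover only how these arrays spread, which may be technical variation, and a line that is 1 clone cannot be told apart from its hairpin.

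A short hairpin RNA is cut by Dicer and loaded into an Argonaute complex, which lowers transcripts that match the guide strand. A control hairpin without a target is meant to carry the effects of transfection, integration, selection and hairpin processing without a knockdown. Stable clones also differ by where the vector integrated and by what the founding cell was like. The comparison of both control lines asks how far such lines differ from each other.

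Over the 11 arrays, the median probe set value lay between 6.82 and 6.92 (log2). Tardbp, the gene targeted in the third group, read 9.25, 9.08, 9.36 and 9.42 in shGFP and 9.29, 9.38 and 9.20 in shLuciferase. The shTardbp arrays read 8.82, 8.80, 8.997 and 8.91, below all 7 control arrays. The control lines did not part at this gene, with a difference of -0.01 ± 0.0877 (SE) and an adjusted p of 0.967 (limma, as for every adjusted p here). The array shLuciferase 4 stood apart from the other shLuciferase arrays. Its 25th percentile (4.56) was the highest of the 7 control arrays, its weight in a fit that weights arrays by their scatter was the lowest of all 11 (0.316), and its code in the labels starts with P where the other 6 control arrays have C. What these letters mean is not given in the sources used here. Counts without this array are therefore given beside the main counts. Of the markers of the labelled cell type, 8 of 8 neuronal genes lay above the 25th percentile of probe sets of every array, with group means from 8.50 (Nefm in shGFP) to 11.97 (Stmn2 in shGFP). Of 7 motor neuron markers, Chat (choline acetyltransferase, 4.24 and 4.17), Slc5a7 (the choline transporter, 3.99 and 4.07) and Mnx1 (4.07 and 4.11, a motor neuron homeobox gene) lay below that percentile in both lines. The vesicular acetylcholine transporter gene Slc18a3 and Isl1 were measured at 9.63 and 7.55 in shLuciferase.

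A gene is called here when its Benjamini-Hochberg adjusted p over all 15803 genes is under 0.05. The control lines differed in 1752 genes, which is 11.1% of those tested. Of these, 990 (6.26%) were higher in shGFP and 762 (4.82%) were lower. The called differences were mostly small, with a median size of 0.415 on the log2 scale against 0.0934 over all genes. A difference of at least 2-fold was reached by 85 called genes, 61 of them higher and 24 lower in shGFP. An unadjusted p under 0.05 in limma was reached by 3579 of the 15803 genes, both directions together. In 3181 genes (20.1%) the 4 shGFP values did not overlap the 3 shLuciferase values, 1616 of them higher and 1565 lower in shGFP, and 1707 of these were called. Leaving out each of the 7 arrays in turn kept 934 calls throughout, 585 higher and 349 lower. The count of lower genes fell to 478 without shLuciferase 2, to 497 without shLuciferase 1 and to 517 without shGFP 5. Without shLuciferase 4 the counts were 868 higher and 736 lower.

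The 15 genes with the largest differences in each direction were picked among called genes whose groups did not overlap. Their lack of overlap, here and below, follows from that choice. The gene that parted the lines most was Ramp3, which codes for a membrane protein that accompanies the calcitonin family of receptors and changes which hormones they bind. Its values were 8.28, 8.44, 8.18 and 8.19 in shGFP and 4.40, 4.97 and 5.07 in shLuciferase. The 4 shGFP arrays lay close together and far above the 3 shLuciferase arrays. The difference was 3.46 ± 0.142 (SE), a 10.97-fold higher signal (adjusted p = 1.29e-08), and all 3 probe sets of the gene moved the same way. The shTardbp arrays, at 4.33, 4.01, 4.42 and 4.21, lay with shLuciferase.

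The regulators of G protein signalling Rgs4 and Rgs5, which speed the return of G proteins to their inactive state, were also called higher. Rgs4 read 7.98, 8.33, 8.12 and 8.16 in shGFP and 5.77, 6.22 and 5.97 in shLuciferase, a difference of 2.16 ± 0.297 (SE, adjusted p = 0.000343). In the shTardbp arrays Rgs4 spread widely, at 6.61, 8.02, 6.77 and 6.23, with shTardbp 2 near the shGFP level. Rgs5 read 6.97, 6.86, 7.06 and 6.98 in shGFP and 5.06, 5.13 and 5.35 in shLuciferase, a difference of 1.79 ± 0.11 (SE, adjusted p = 3.99e-07). These genes are neighbours on chromosome 1. The list of RGS proteins, RAMPs and G protein subunits had 47 measured members, of which 9 were called higher and 3 lower in shGFP (25.5%, against 11.1% of all genes; 8 and 2 without shLuciferase 4). Its median difference was -0.01 against -0.01 over all genes. The gamma subunit gene Gng4 was among the higher members (1.15 ± 0.109 SE, adjusted p = 1.65e-05), with the beta subunit gene Gnb3 (0.67), Rgs9 (0.49) and the alpha subunit genes Gna12 (0.46), Gna13 (0.22) and Gna14 (0.26). Gng8 (-0.86), Rgs16 (-0.42) and Rgs10 (-0.35) were lower. The calls of Gna13, Gna14 and Rgs10 were lost on leaving out any of 4 to 6 arrays in turn, with adjusted p up to 0.156.

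**Figure D1:**
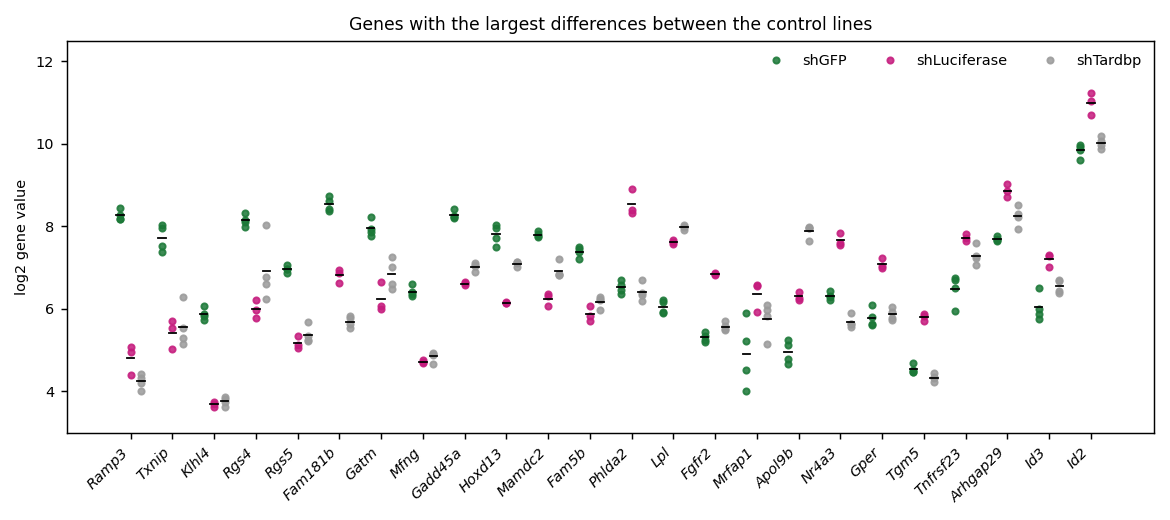
Log2 gene values (vertical axis) of the 12 genes with the largest differences in each direction (horizontal axis), one point per array and a bar at each group mean, for shGFP (green), shLuciferase (magenta) and, for reference, shTardbp (grey). Ramp3 reads 8.18 to 8.44 in shGFP and 4.40 to 5.07 in shLuciferase, and Phlda2 reads 6.35 to 6.70 in shGFP and 8.33 to 8.90 in shLuciferase.

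Other genes higher in shGFP came from several functions. Txnip, an inhibitor of thioredoxin and of glucose uptake whose transcript follows glucose supply, read 7.39, 8.02, 7.52 and 7.97 in shGFP and 5.53, 5.72 and 5.03 in shLuciferase. Its difference was 2.30 ± 0.246 (SE, adjusted p = 4.57e-05), and all 10 probe sets moved the same way. Klhl4, a kelch family gene, read 5.72, 6.07, 5.87 and 5.84 in shGFP and 3.62, 3.69 and 3.74 in shLuciferase, and in shLuciferase it lay below the 25th percentile of every array. Array signal near background compresses differences, so its difference of 2.19 ± 0.0872 (SE, adjusted p = 1.29e-08) is on the scale of the signal only. Mfng, a glycosyltransferase that modifies Notch receptors, read 6.41, 6.30, 6.60 and 6.37 in shGFP and 4.70, 4.75 and 4.72 in shLuciferase, a difference of 1.70 ± 0.0857 (SE, adjusted p = 7.43e-08). Gadd45a, a stress and DNA damage gene, read 8.21, 8.42, 8.23 and 8.25 in shGFP and 6.63, 6.57 and 6.64 in shLuciferase, a difference of 1.66 ± 0.0765 (SE, adjusted p = 3.61e-08). For each of these 4 genes the groups were parted by a gap wider than either group's range.

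Gatm, the first enzyme of creatine synthesis, had means of 7.95 ± 0.196 (SD, n = 4) in shGFP and 6.24 ± 0.357 (SD, n = 3) in shLuciferase, with shLuciferase 4 the highest of its group. Fam181b had means of 8.54 ± 0.174 (SD, n = 4) in shGFP and 6.82 ± 0.159 (SD, n = 3) in shLuciferase. Mamdc2 had means of 7.80 ± 0.0594 (SD, n = 4) in shGFP and 6.25 ± 0.151 (SD, n = 3) in shLuciferase, and 19 of its 22 probe sets moved the same way. In these 3 genes the shGFP arrays lay above all shLuciferase arrays. Fam5b, now named Brinp2 and known from neural development, had means of 7.39 ± 0.125 (SD, n = 4) in shGFP and 5.87 ± 0.19 (SD, n = 3) in shLuciferase. Cnn2, an actin-binding calponin, had means of 8.89 ± 0.181 (SD, n = 4) in shGFP and 7.38 ± 0.334 (SD, n = 3) in shLuciferase. Nxph4, a neurexophilin, had means of 7.04 ± 0.217 (SD, n = 4) in shGFP and 5.55 ± 0.197 (SD, n = 3) in shLuciferase. The differences of these 6 genes ran from 1.48 (Nxph4, adjusted p = 0.00373) to 1.72 (Fam181b, adjusted p = 4.19e-07). The groups overlapped in none of them, as the choice of genes required. Cnn2 was as high in shTardbp (mean 8.94) as in shGFP, whereas Fam181b was lower there (mean 5.69) than in either control line.

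The largest difference toward shLuciferase was that of Phlda2, an imprinted gene with a pleckstrin homology domain that restrains placental growth. It read 6.35, 6.70, 6.59 and 6.46 in shGFP and 8.39, 8.33 and 8.90 in shLuciferase, a difference of -2.02 ± 0.144 (SE, adjusted p = 1.37e-06). The shTardbp arrays, at 6.34, 6.70, 6.18 and 6.40, lay with shGFP. Lpl, the lipoprotein lipase, read 5.91, 6.16, 6.22 and 5.93 in shGFP and 7.67, 7.56 and 7.63 in shLuciferase, a difference of -1.57 ± 0.0841 (SE, adjusted p = 1.16e-07). Fgfr2, a receptor of fibroblast growth factors, read 5.21, 5.43, 5.35 and 5.26 in shGFP and 6.88, 6.83 and 6.84 in shLuciferase, and all 24 of its probe sets were lower in shGFP (-1.54 ± 0.0753 SE, adjusted p = 6.19e-08). In these 3 genes the shLuciferase arrays were higher without overlap, as the choice of genes required.

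Nr4a3, an orphan nuclear receptor of the immediate early class, had means of 6.31 ± 0.0893 (SD, n = 4) in shGFP and 7.66 ± 0.152 (SD, n = 3) in shLuciferase. Gper, now Gper1, a membrane receptor for oestrogen, had means of 5.78 ± 0.223 (SD, n = 4) in shGFP and 7.08 ± 0.134 (SD, n = 3) in shLuciferase. Apol9b, an interferon-responsive apolipoprotein L gene, had means of 4.95 ± 0.276 (SD, n = 4) in shGFP and 6.30 ± 0.0929 (SD, n = 3) in shLuciferase, and shTardbp lay higher than both (7.89). Tgm5, a transglutaminase, had means of 4.54 ± 0.0999 (SD, n = 4) in shGFP and 5.80 ± 0.0926 (SD, n = 3) in shLuciferase. In each of these 4 genes the shLuciferase arrays lay above all shGFP arrays. Arhgap29 had means of 7.69 ± 0.0527 (SD, n = 4) in shGFP and 8.86 ± 0.153 (SD, n = 3) in shLuciferase, with 25 of 25 probe sets lower in shGFP. Nuak1, a kinase of the AMPK family, had means of 8.44 ± 0.307 (SD, n = 4) in shGFP and 9.59 ± 0.273 (SD, n = 3) in shLuciferase. Nqo1, a quinone reductase of the oxidative stress response, had means of 5.46 ± 0.403 (SD, n = 4) in shGFP and 6.60 ± 0.318 (SD, n = 3) in shLuciferase. Cxcr7, now Ackr3, a scavenger receptor of chemokines, had means of 6.99 ± 0.137 (SD, n = 4) in shGFP and 8.12 ± 0.272 (SD, n = 3) in shLuciferase. The differences of these 8 genes ran from -1.35 (Apol9b, adjusted p = 1.97e-05) to -1.13 (Cxcr7, adjusted p = 8.74e-05), with the largest adjusted p at Nqo1 (0.00129).

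Mrfap1 also belongs to the 15 largest decreases, at 4.01, 5.21, 5.90 and 4.53 in shGFP and 6.57, 5.92 and 6.58 in shLuciferase, but it rests on 1 probe set, and its shGFP values spread more widely than those of any gene described so far. Its call (difference -1.44 ± 0.355 SE, adjusted p = 0.0175) was lost without shGFP 5, without shLuciferase 1 and without shLuciferase 4, with adjusted p up to 0.104.

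The gene list with the greatest share of called members was the unfolded protein and integrated stress response. In this pathway the kinases Eif2ak3 (PERK) and Eif2ak4 (GCN2) slow translation when proteins misfold in the endoplasmic reticulum (ER) or amino acids run short. Translation of Atf4 then increases, and ATF4 raises amino acid synthesis and transport genes, while the Ern1 (IRE1) and Atf6 branches raise chaperones through Xbp1 and ER stress elements. Of 36 measured members, 18 were called higher in shGFP and 0 lower (50%, against 11.1% of all genes), with a median difference of 0.26 against -0.01 over all genes. At an unadjusted p under 0.05 in limma, 22 members were higher and 2 lower (3579 of 15803 over all genes). Without shLuciferase 4, 14 were higher and 0 lower, and 11 of the 18 kept their call whichever of the 7 arrays was left out.

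Promoter sequences are shown for 4 called members that hold the core of the amino acid response element, through which ATF4 acts, and for a pair of ER chaperones without a call that hold the ER stress element. The windows run from 250 bases before to 50 after the transcription start and come from RefSeq, build GRCm38.p6, 5′ to 3′ in the direction of the gene. Capitals mark each match, on either strand, to TGATGNAAN (the first 4), N being any base, or to the ER stress element (the last pair), which is CCAAT and CCACG parted by 9 bases. The first motif shares letters with sites of the C/EBP family, and the second holds a CCAAT box.
Trib3 (chr2:152344011-152344310 on the minus strand): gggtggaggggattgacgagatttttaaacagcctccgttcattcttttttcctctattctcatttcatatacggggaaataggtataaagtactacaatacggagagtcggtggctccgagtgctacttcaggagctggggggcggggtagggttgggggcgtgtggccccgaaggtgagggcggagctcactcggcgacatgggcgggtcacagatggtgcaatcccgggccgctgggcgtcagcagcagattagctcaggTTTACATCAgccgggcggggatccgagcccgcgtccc
Chac1 (chr2:119350992-119351291 on the plus strand): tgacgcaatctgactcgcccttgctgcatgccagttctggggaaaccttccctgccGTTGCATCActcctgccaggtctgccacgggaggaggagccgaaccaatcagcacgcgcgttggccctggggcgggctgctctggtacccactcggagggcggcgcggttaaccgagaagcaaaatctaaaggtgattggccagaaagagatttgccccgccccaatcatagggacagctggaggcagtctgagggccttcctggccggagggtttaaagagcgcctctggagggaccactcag
Asns (chr6:7693160-7693459 on the minus strand): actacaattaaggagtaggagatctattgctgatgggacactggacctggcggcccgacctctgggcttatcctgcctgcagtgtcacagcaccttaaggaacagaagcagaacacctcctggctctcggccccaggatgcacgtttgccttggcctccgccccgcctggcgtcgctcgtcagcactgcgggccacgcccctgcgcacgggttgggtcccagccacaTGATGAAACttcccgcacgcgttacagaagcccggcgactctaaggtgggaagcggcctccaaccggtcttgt
Slc7a11 (chr3:50443564-50443863 on the minus strand): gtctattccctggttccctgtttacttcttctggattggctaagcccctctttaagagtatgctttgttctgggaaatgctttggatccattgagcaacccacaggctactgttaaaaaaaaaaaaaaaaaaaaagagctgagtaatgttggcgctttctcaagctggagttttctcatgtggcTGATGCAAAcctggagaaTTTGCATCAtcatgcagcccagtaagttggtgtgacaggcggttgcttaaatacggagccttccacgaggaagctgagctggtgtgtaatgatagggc
Hspa5 (chr2:34771840-34772139 on the plus strand): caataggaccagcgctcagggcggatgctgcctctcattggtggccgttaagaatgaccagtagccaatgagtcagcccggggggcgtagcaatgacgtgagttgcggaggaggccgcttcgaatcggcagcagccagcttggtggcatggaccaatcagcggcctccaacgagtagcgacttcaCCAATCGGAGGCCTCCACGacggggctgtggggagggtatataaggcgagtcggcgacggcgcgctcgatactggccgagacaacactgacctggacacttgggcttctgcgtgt
Calr (chr8:84846882-84847181 on the minus strand): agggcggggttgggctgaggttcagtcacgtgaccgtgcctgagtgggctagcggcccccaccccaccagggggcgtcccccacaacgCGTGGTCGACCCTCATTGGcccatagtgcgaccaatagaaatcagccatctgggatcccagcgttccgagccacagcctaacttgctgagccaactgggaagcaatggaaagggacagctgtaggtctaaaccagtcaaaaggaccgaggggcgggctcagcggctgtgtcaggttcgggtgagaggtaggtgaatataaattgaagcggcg

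Of the 36 measured members, 33 had a promoter window. The amino acid response core was found in 6 of 18 called members (Atf3, Trib3, Chac1, Asns, Herpud1 and Slc7a11) and in 0 of 15 members that were not called, against 4.5% of 27025 genes. The ER stress element was found in 1 of 18 called members (Hsp90b1) and in 7 of 15 not called (Hspa5, Pdia6, Calr, Canx, Dnajc3, Syvn1 and Creld2), against 0.137% of genes. A match describes letters in this window and is no evidence of binding. The lists were chosen with earlier results of these data known, and the motifs after the calls. The split between called and other members is therefore a description and no test, here and for the motif counts of other lists below.

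Slc7a11, Trib3, Atf3 and Sesn2 had the largest differences of the list. Slc7a11, the cystine transporter, read 10.20, 10.52, 10.53 and 10.47 in shGFP and 9.58, 9.47 and 9.61 in shLuciferase, a difference of 0.88 ± 0.116 (SE, adjusted p = 0.000239). Within shGFP, array 1 was the lowest at this gene but still above every shLuciferase array. The shTardbp arrays, at 10.47, 9.94, 10.30 and 10.32, lay above shLuciferase too. Trib3, a pseudokinase induced by ATF4 and CHOP, read 9.58, 9.72, 9.43 and 9.43 in shGFP and 8.82, 8.79 and 8.46 in shLuciferase, a difference of 0.85 ± 0.116 (SE, adjusted p = 0.000328). Atf3, a stress-induced transcription factor, read 8.83, 8.93, 8.70 and 8.67 in shGFP and 8.11, 7.96 and 7.77 in shLuciferase, a difference of 0.83 ± 0.0945 (SE, adjusted p = 6.73e-05). Sesn2, a sestrin that restrains mTORC1 when amino acids are short, read 9.75, 9.83, 9.81 and 9.62 in shGFP and 9.03, 9.12 and 8.66 in shLuciferase, a difference of 0.82 ± 0.102 (SE, adjusted p = 0.000145). The groups did not overlap in these 4 genes, and every probe set of each was higher in shGFP.

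Other transcription factor genes of the pathway differed by less. Ddit3, which codes for CHOP, differed by 0.62 ± 0.112 (SE, adjusted p = 0.00243), Cebpb by 0.54, Atf5 by 0.48, Xbp1 by 0.29 and Atf4 itself by 0.26 ± 0.0689 (SE, adjusted p = 0.0284). Atf4 lost its call without shGFP 2, shGFP 5 or shLuciferase 1, and Xbp1 without shLuciferase 1. Myd116, now Ppp1r15a, the phosphatase subunit that ends the translation block, was higher by 0.56 ± 0.0869 (SE, adjusted p = 0.000882). The sensor gene Ern1 was higher by 0.59 ± 0.0754 (SE, adjusted p = 0.000175). Chac1, which degrades glutathione, read 11.04, 11.04, 10.89 and 10.99 in shGFP and 10.44, 10.63 and 10.72 in shLuciferase (0.39 ± 0.0775 SE, adjusted p = 0.00453). Asns, asparagine synthetase, read 12.43 to 12.55 in shGFP and 12.18 to 12.31 in shLuciferase, with a difference of 0.26 ± 0.0665 (SE, adjusted p = 0.0238). Its call was lost without shGFP 5, shLuciferase 1 or shLuciferase 4. Mthfd2, a mitochondrial folate enzyme, was higher by 0.34.

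Chaperones of the ER divided. Hsp90b1 was higher by 0.36 ± 0.0917 (SE, adjusted p = 0.0222), and Herpud1 (0.59), Sdf2l1 (0.29) and Sel1l (0.27), which take part in ER quality control and degradation, were called higher too. Hsp90b1, Sdf2l1 and Sel1l lost the call on leaving out any of 4 to 6 arrays, and Herpud1 without shLuciferase 4 (adjusted p = 0.0505). Hspa5, the chaperone BiP, read 11.13, 11.39, 11.48 and 11.55 in shGFP and 11.20, 11.08 and 11.09 in shLuciferase and was not called (0.27 ± 0.0978 SE, 95% interval 0.06 to 0.48, adjusted p = 0.107). shGFP 1 lay among the shLuciferase values there. Calr, calreticulin, read 10.76, 10.93, 10.93 and 10.97 in shGFP and 10.94, 11.06 and 11.07 in shLuciferase and was not called (-0.13 ± 0.0745 SE, 95% interval -0.29 to 0.04). Canx (-0.21), Dnajc3 (-0.26) and Syvn1 (-0.18) had negative differences that did not pass the test. As a list, the 36 genes had a median deviation from the mean of the 7 control arrays of 0.05 to 0.19 in the 4 shGFP arrays and of -0.19 to -0.10 in the 3 shLuciferase arrays, without overlap. In the shTardbp arrays it was -0.12 to -0.08, within the range of shLuciferase or near it.

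Genes of glycolysis and the hypoxia response formed the next list. Hypoxia-inducible factor, stabilised when its prolyl hydroxylases (the Egln genes) lack oxygen, raises glucose transporters, glycolytic enzymes and Vegfa. Of 28 measured members, 10 were called higher in shGFP and 0 lower (35.7%, against 11.1% of all genes), with a median difference of 0.45. At an unadjusted p under 0.05 in limma, 18 were higher and 0 lower (3579 of 15803 over all genes). Those 10 included Txnip, described above. The count was 7 without shLuciferase 4, 6 without shGFP 5 and 6 without shLuciferase 1, and 15 when the 7 control arrays alone were fitted.

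Slc2a3, the neuronal glucose transporter GLUT3, read 9.84, 10.15, 9.94 and 9.93 in shGFP and 8.98, 8.99 and 8.71 in shLuciferase, a difference of 1.07 ± 0.19 (SE, adjusted p = 0.00218). Eno2, the neuronal enolase, read 8.80, 8.97, 8.90 and 8.77 in shGFP and 7.97, 8.04 and 7.60 in shLuciferase, a difference of 0.99 ± 0.165 (SE, adjusted p = 0.00141). Vegfa, a growth factor of blood vessels, had means of 10.88 ± 0.0849 (SD, n = 4) in shGFP and 10.39 ± 0.16 (SD, n = 3) in shLuciferase, a difference of 0.49 ± 0.0843 (SE, adjusted p = 0.00189). Egln1, a prolyl hydroxylase that is itself raised by hypoxia-inducible factor, was higher by 0.67 ± 0.121 (SE, adjusted p = 0.00251). The groups did not overlap in any of these 4, and each kept its call whichever array was left out.

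Pdk1, a kinase that holds pyruvate back from the mitochondria, read 7.15, 7.77, 7.47 and 7.90 in shGFP and 6.20, 6.30 and 6.06 in shLuciferase. Its difference of 1.39 ± 0.342 (SE) has an adjusted p of 0.0175, and the call was lost without shGFP 5, shLuciferase 1 or shLuciferase 4 (adjusted p up to 0.0632). Bnip3, a mitophagy receptor, read 9.96, 10.29, 10.21 and 10.43 in shGFP and 8.67, 9.08 and 9.67 in shLuciferase, with a difference of 1.08 ± 0.298 (SE, adjusted p = 0.032). It lost its call on leaving out any of 5 arrays in turn. Pfkl (0.68), Pfkp (0.42) and P4ha1 (0.57) also lost theirs on leaving out 1 or more arrays, Pfkl only without shLuciferase 4. Among members that were not called, Hk2 read 6.50, 7.07, 7.10 and 7.21 in shGFP and 6.50, 6.57 and 6.35 in shLuciferase, where shGFP 1 lay within the shLuciferase values. Egln3 had a difference of 0.73 ± 0.236 (SE) with an adjusted p of 0.0669. Car9, the carbonic anhydrase that hypoxia raises in many tumour cells, lay below the 25th percentile of every array in both lines (3.95 and 3.98).

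One array of the third group bears on these errors. The median deviation of the 28 genes was 0.22 in shTardbp 2 and -0.41 to -0.27 in the other shTardbp arrays, and this spread enters the shared error of the fit. Pdk1 read 6.11, 7.91, 6.32 and 6.13 in shTardbp 1 to 4 and Bnip3 8.77, 10.32, 9.20 and 9.13. In the control arrays the median deviation was 0.05, 0.28, 0.11 and 0.26 in shGFP 1, 2, 3 and 5 and -0.28 to -0.16 in shLuciferase. A promoter match to ACGTG, the core of the hypoxia response element that is also part of the CACGTG E-box, was found in 4 of 9 called members and 12 of 17 not called, against 21.8% of all genes.

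**Figure D2:**
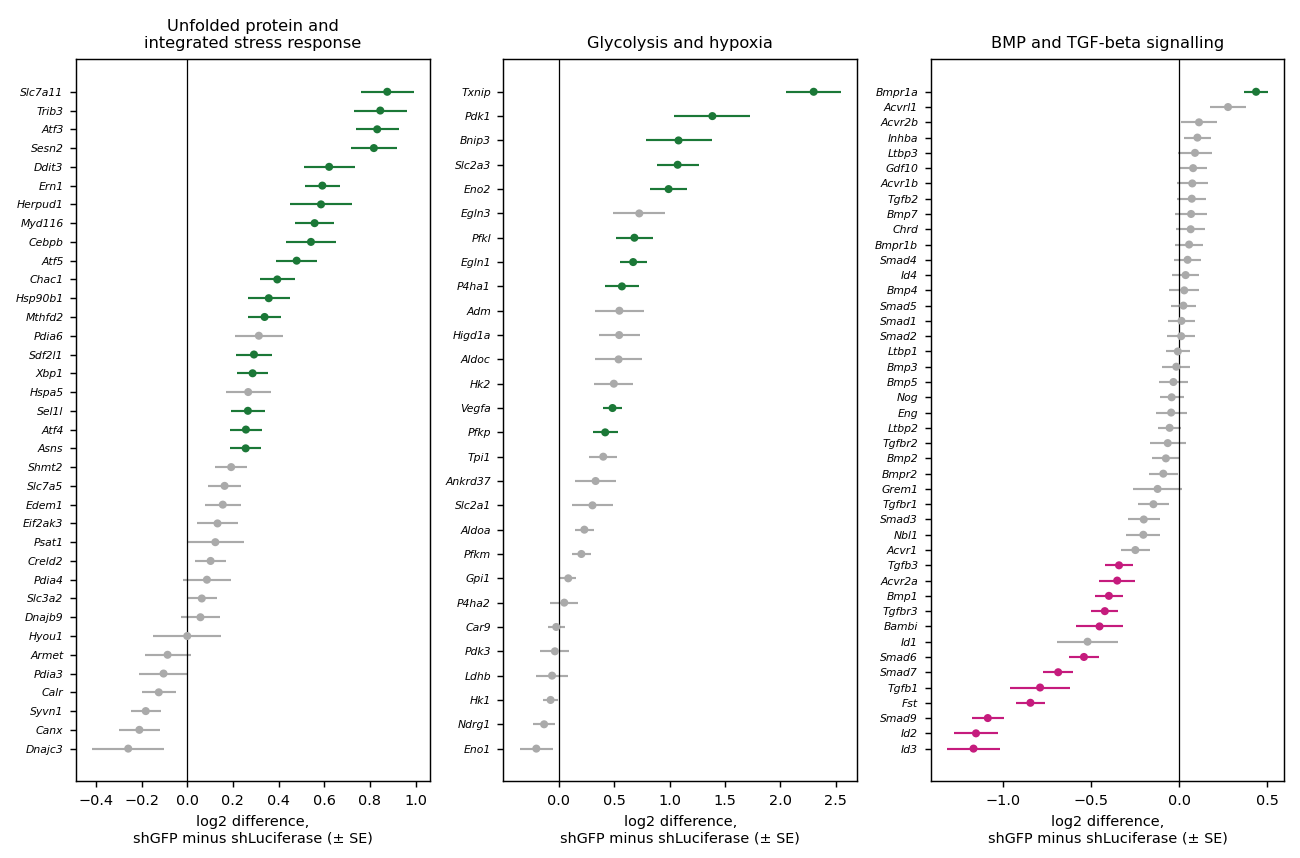
Log2 difference between shGFP and shLuciferase (horizontal axis) for every measured member of 3 gene lists, with bars of 1 standard error (SE) of the fit, and colour marking genes called higher (green) or lower (magenta) in shGFP. In the unfolded protein and integrated stress response list 18 of 36 are called, all to the right, in the glycolysis and hypoxia list 10 of 28, and in the BMP and TGF-beta list 12 of 44 are called to the left and 1 to the right.

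BMP and TGF-beta signalling leaned the other way. Ligands of this family bind paired receptors that phosphorylate Smad proteins, and the Id genes, Smad6 and Smad7 are direct targets that a cell raises in proportion to the signal. Of 44 measured members, 12 were called lower in shGFP and 1 higher (29.5%, against 11.1% of all genes), although the median difference was only -0.05. Without shLuciferase 4 there were 11 lower and 1 higher. Leaving out any single array gave 11 to 12 calls.

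Several targets were lower by wide margins. Id3 read 5.99, 6.51, 5.76 and 5.88 in shGFP and 7.31, 7.28 and 7.03 in shLuciferase, a difference of -1.17 ± 0.151 (SE, adjusted p = 0.000206), and Id2 read 9.91, 9.97, 9.86 and 9.61 in shGFP and 11.24, 11.04 and 10.70 in shLuciferase, a difference of -1.15 ± 0.124 (SE, adjusted p = 4.85e-05). All shLuciferase arrays lay above all shGFP arrays in both genes. Smad9, a Smad of the BMP branch, read 7.40, 7.64, 7.70 and 7.41 in shGFP and 8.71, 8.64 and 8.53 in shLuciferase, a difference of -1.09 ± 0.092 (SE, adjusted p = 5.97e-06). The inhibitory Smad7 read 6.85, 7.01, 7.03 and 6.85 in shGFP and 7.76, 7.64 and 7.46 in shLuciferase (-0.69 ± 0.0838 SE, adjusted p = 0.000119) and Smad6 6.95, 6.58, 6.77 and 6.74 in shGFP and 7.40, 7.25 and 7.26 in shLuciferase (-0.54 ± 0.0853 SE, adjusted p = 0.000967). Id1, at 8.22, 7.72, 7.77 and 7.78 in shGFP and 8.54, 8.48 and 8.16 in shLuciferase, overlapped between the lines, since shGFP 1 lay above shLuciferase 4, and was not called (adjusted p = 0.0754). Bambi, a decoy receptor and target, was lower by a difference of -0.45 and lost its call on leaving out any of 6 arrays.

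Ligands, antagonists and receptors made up the other called members. Fst, the activin antagonist follistatin, read 5.71, 5.52, 5.70 and 5.62 in shGFP and 6.39, 6.38 and 6.68 in shLuciferase, a difference of -0.84 ± 0.0822 (SE, adjusted p = 2e-05). Tgfb1 read 5.99, 6.83, 6.62 and 6.49 in shGFP and 7.02, 7.39 and 7.40 in shLuciferase, a difference of -0.79 ± 0.168 (SE, adjusted p = 0.00744), with shGFP 1 the lowest. Tgfb3 (-0.34), Bmp1 (-0.40, a procollagen protease despite its name) and the coreceptor Tgfbr3 (-0.42) were lower, and so was the activin receptor Acvr2a (-0.35), whose call was lost on leaving out any of 6 arrays. Bmpr1a, a receptor of BMPs, was the single member called higher, at 11.18, 11.38, 11.40 and 11.32 in shGFP and 10.93, 10.89 and 10.83 in shLuciferase (0.44 ± 0.0696 SE, adjusted p = 0.00105). Bmp4 lay below the 25th percentile of every array (4.35 and 4.33). A promoter match to GGCGCC, a GC box bound by Smads of the BMP branch, was found in 3 of 7 called and 9 of 23 other members with a window, against 13.4% of all genes. In shTardbp, Id2 (10.03), Id3 (6.55) and Smad9 (7.86) lay between the control lines, and Bambi (8.68) above both.

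**Figure D3:**
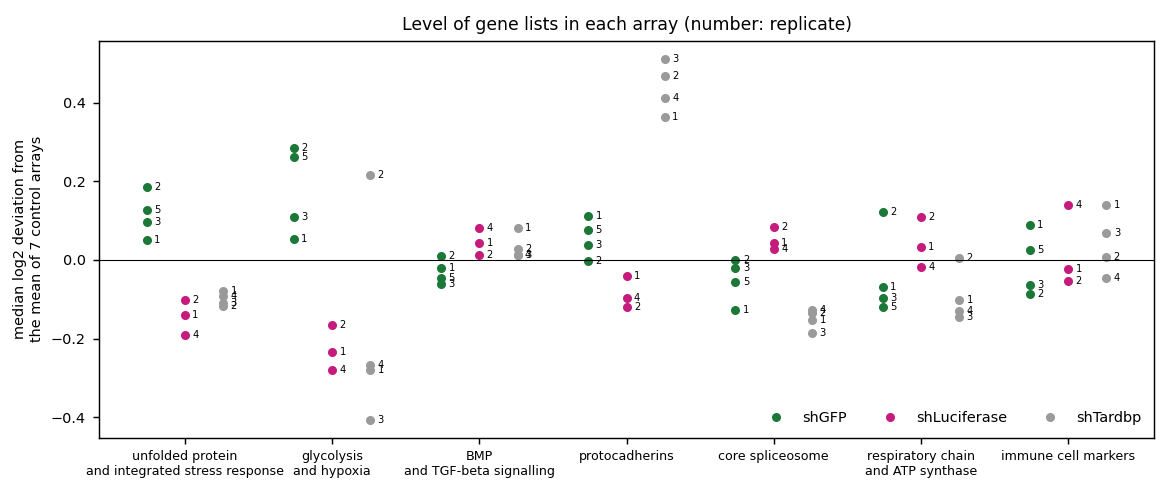
Median over the genes of each list of the log2 deviation from the mean of the 7 control arrays (vertical axis), one point per array with its replicate number, for 7 lists (horizontal axis) in shGFP (green), shLuciferase (magenta) and shTardbp (grey). In the stress response list the 4 shGFP arrays lie at 0.05 to 0.19 and the shLuciferase arrays at -0.19 to -0.10, and in the hypoxia list shTardbp 2 lies at 0.22, apart from the other shTardbp arrays.

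Growth factor receptors and ligands differed in both directions. Of 61 measured receptor tyrosine kinases and ligands, 11 were called higher and 4 lower in shGFP (24.6%, against 11.1% of all genes; 10 and 4 without shLuciferase 4). Their median difference was -0.02. Beside Fgfr2, the lower members were Kdr (-0.63), Kitl (-0.48) and Pdgfra (-0.45). Gfra1, the coreceptor of GDNF and a survival receptor of motor neurons, read 8.47, 8.67, 8.62 and 8.48 in shGFP and 7.65, 7.71 and 7.57 in shLuciferase, a difference of 0.91 ± 0.0774 (SE, adjusted p = 5.97e-06). Pdgfc, a ligand of the PDGF receptors, read 7.37, 7.24, 7.36 and 7.37 in shGFP and 6.35, 6.30 and 6.73 in shLuciferase, a difference of 0.88 ± 0.0958 (SE, adjusted p = 5.25e-05). Hgf, the ligand of Met, read 6.11, 6.43, 6.65 and 6.57 in shGFP and 5.53, 5.54 and 5.84 in shLuciferase, a difference of 0.80 ± 0.12 (SE, adjusted p = 0.000641), and in 9 of its 20 probe sets taken singly the groups did not overlap. Pdgfrb was higher by 0.75 ± 0.091 (SE, adjusted p = 0.000119) where Pdgfra was lower, and the neurotrophin receptor Ntrk3 was higher by 0.66 ± 0.0685 (SE, adjusted p = 3.66e-05). Insr (0.53), Fgf1 (0.54), Fgf7 (0.52), Igf2r (0.44), Vegfa and Ntrk2 (0.37) made up the rest. Only Ntrk2 lost its call on leaving out an array. Fgfr1, another FGF receptor, read 9.89 to 9.94 in shGFP and 9.95 to 10.07 in shLuciferase and was not called (95% interval -0.22 to 0.04).

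Feedback inhibitors of FGF and MAP kinase signalling, 18 measured, had 2 members called higher and 2 lower (22.2%, against 11.1% of all genes; 3 and 3 without shLuciferase 4). Dusp6, a phosphatase of ERK, read 10.36, 10.72, 10.51 and 10.51 in shGFP and 9.72, 9.87 and 9.27 in shLuciferase, a difference of 0.90 ± 0.126 (SE, adjusted p = 0.000394). Spry1 read 6.89, 7.22, 7.07 and 7.03 in shGFP and 6.12, 6.11 and 6.24 in shLuciferase, a difference of 0.90 ± 0.131 (SE, adjusted p = 0.000537). Il17rd, known as Sef, an inhibitor of FGF receptors, went the other way at 7.63, 7.70, 7.67 and 7.57 in shGFP and 8.51, 8.52 and 8.36 in shLuciferase (-0.82 ± 0.0688 SE, adjusted p = 5.34e-06). The groups did not overlap in these 3. Dusp2 (-0.43) was lower but lost its call on leaving out any of 5 arrays. Spry2 (0.28 ± 0.131 SE) and Spry4 (0.06 ± 0.0734 SE) did not pass the test.

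Homeobox and imprinted genes, which keep a state of expression through cell division, parted the lines at single loci. Of 33 measured Hox genes, 4 were called higher in shGFP and 0 lower (12.1%, close to the 11.1% of all genes; 4 and 0 without shLuciferase 4), and all 4 lie in the posterior part of the HoxD cluster on chromosome 2. Hoxd13 read 7.51, 7.95, 8.03 and 7.73 in shGFP and 6.15, 6.17 and 6.14 in shLuciferase (1.65 ± 0.105 SE, adjusted p = 4.66e-07). Hoxd10 read 8.45, 8.29, 8.20 and 8.37 in shGFP and 6.88, 6.70 and 6.89 in shLuciferase (1.50 ± 0.0828 SE, adjusted p = 1.38e-07). Hoxd9 read 5.46, 5.63, 5.55 and 5.57 in shGFP and 4.75, 4.85 and 4.91 in shLuciferase (0.72 ± 0.0812 SE, adjusted p = 6.7e-05), and Hoxd11 6.27, 6.36, 6.46 and 6.18 in shGFP and 5.83, 5.91 and 5.86 in shLuciferase (0.45 ± 0.0807 SE, adjusted p = 0.00242). Each of these groups was clear of the other. The Hoxd11 call rests on few probe sets, since the groups were clear of each other in 1 of its 7 taken singly and the median over probe sets gave an adjusted p of 0.92. Hoxd3 (4.61 and 4.51) and Hoxd1 (4.59 and 4.64), at the anterior end, lay near the 25th percentile and were not called. In shTardbp the HoxD genes lay near shGFP for Hoxd10 (8.43), Hoxd9 (5.72) and Hoxd11 (6.34), and between the lines for Hoxd13 (7.10).

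Among 43 measured imprinted genes, which are expressed from 1 parental copy in at least some tissues, 9 were called higher and 5 lower in shGFP (32.6%, against 11.1% of all genes). The counts were 8 and 4 without shLuciferase 4, and 9 in all without shGFP 3. Their median difference was 0.02, so there was no common direction. Beside Gatm and Phlda2, Magel2 read 7.51, 7.56, 7.82 and 8.02 in shGFP and 6.40, 6.69 and 7.30 in shLuciferase (0.93 ± 0.185 SE, adjusted p = 0.00489), with shLuciferase 4 the highest of its group. Nap1l5 read 7.13, 7.17, 7.22 and 7.25 in shGFP and 6.17, 6.46 and 6.35 in shLuciferase (0.87 ± 0.0957 SE, adjusted p = 5.58e-05). Dcn and Ddc, described below, Grb10 (0.47), Ndn (0.45), Igf2r and Ppp1r9a (0.36) were higher. H19, a maternally expressed noncoding RNA, read 5.09, 5.29, 5.19 and 5.37 in shGFP and 5.43, 5.64 and 6.11 in shLuciferase (-0.49 ± 0.138 SE, adjusted p = 0.0361), and Peg3 10.77, 10.79, 10.85 and 10.99 in shGFP and 11.19, 11.25 and 11.23 in shLuciferase (-0.37 ± 0.0705 SE, adjusted p = 0.00343). Mcts2 (-0.31) and H13 (-0.27) were lower. The calls of H19, Ndn, Ppp1r9a, Mcts2 and H13 were lost on leaving out any of 5 to 6 arrays. The arrays do not tell the parental copies apart.

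Neighbours of the largest differences were examined with gene order from the RefSeq table of GRCm38.p6. Pairing the 30 genes with the largest differences with each gene up to 3 places away gave 180 pairs. In 29 pairs the neighbour was called (16.1%, against 11.1% of all genes), 18 of them in the direction of the gene it neighbours. Some genes enter several pairs, and some of the 30, such as Rgs4 and Rgs5, are each other's neighbours, so the pairs are not separate genes. Rgs4 and Rgs5 on chromosome 1 are followed by Hsd17b7, which was not called (-0.21 ± 0.0865 SE, adjusted p = 0.154). After it comes Ddr2, a collagen receptor, at 11.29 to 11.33 in shGFP and 10.56 to 10.77 in shLuciferase (0.63 ± 0.0783 SE, adjusted p = 0.00014). Fam5b, also on chromosome 1, lies beside Astn1 (0.56 ± 0.0861 SE, adjusted p = 0.000849) and Tnr, both higher. Dach2 beside Klhl4 on the X chromosome was higher by 0.57 ± 0.0801 (SE, adjusted p = 0.000394). Tnfrsf23, a decoy receptor of the TNF family, read 5.96, 6.51, 6.71 and 6.74 in shGFP and 7.71, 7.65 and 7.82 in shLuciferase (-1.25 ± 0.164 SE, adjusted p = 0.000231), and its neighbour Tnfrsf22 read 8.49, 8.81, 8.78 and 8.59 in shGFP and 9.54, 9.38 and 9.62 in shLuciferase (-0.85 ± 0.096 SE, adjusted p = 6.73e-05). These 2 genes and Phlda2 lie in the same imprinted region of chromosome 7. Genes between them did not follow, since Nap1l4 (0.02) and Tnfrsf26 (0.04) were not called and Cars, the cysteinyl-tRNA synthetase, was higher (0.45 ± 0.0635 SE, adjusted p = 0.00045). Cdkn1c (0.02), on the other side of Phlda2, was not called either.

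**Figure D4:**
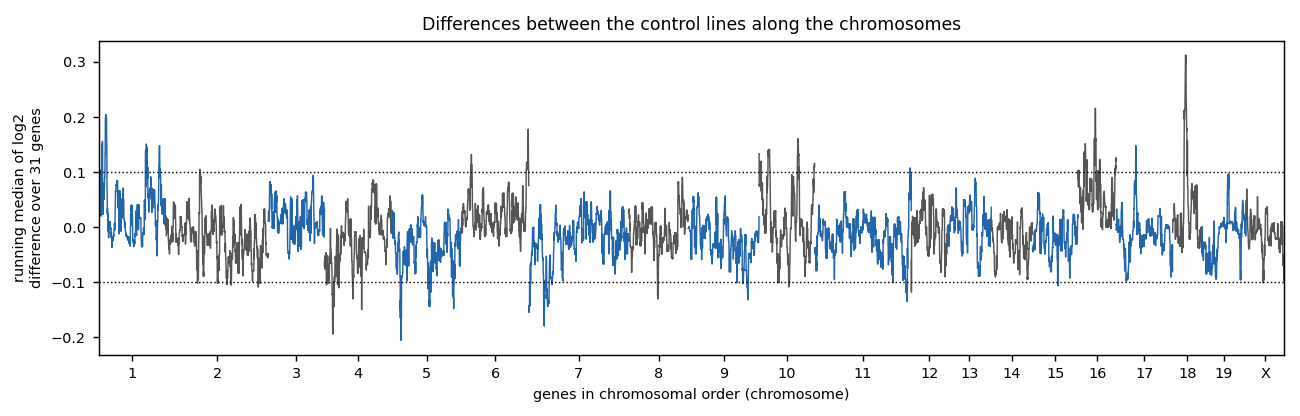
Running median over 31 genes of the log2 difference between shGFP and shLuciferase (vertical axis) with genes in chromosomal order (horizontal axis, chromosomes in alternating colours), and dotted lines at 0.1 and -0.1. Most of the genome stays between the dotted lines, and the highest peak is the protocadherin cluster on chromosome 18, a stretch of 38 genes with a median difference of 0.29.

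In stretches of at least 30 consecutive genes whose running median lay beyond 0.1, 3 parts of the genome stood out. They were chosen from these differences, so their values are a description. The stretch on chromosome 6 from Kcnj8 to Dennd5b held 33 genes, 8 called higher and 1 lower (27.3%, against 11.1% of all genes), with a median of 0.11. Within it Itpr2, an inositol trisphosphate receptor, differed by 1.20 ± 0.0923 (SE), with 64 of 65 probe sets higher in shGFP, and Rassf8 by 0.86 ± 0.103 (SE), while its end genes Kcnj8 (-0.27) and Dennd5b (0.06) were not called. The stretch on chromosome 7 from Sertad3 to Lgals7 held 33 genes, 0 called higher and 4 lower (12.1%, near the share of all genes), with a median of -0.14. Sars2 (-0.52 ± 0.0842 SE) and Zfp36 (-0.33) were its most different called members, the Zfp36 call being lost on leaving out any of 6 arrays, while Sertad3 (0.32) and Lgals7 (0.10) at its ends were not called. The third stretch ran from Pcdha7 to Pcdhga10 on chromosome 18 with 38 genes, 11 called higher and 0 lower (28.9%), while Pcdha7 (0.03) and Pcdhga10 (0.04) themselves were not called.

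Protocadherins are adhesion molecules of neurons, and the clustered ones are chosen in random combinations in each cell. Of 35 measured on the array, 8 were called higher in shGFP and 0 lower (22.9%, against 11.1% of all genes; 5 and 1 without shLuciferase 4). The median difference was 0.21, and all 8 are beta genes. With the shift of neighbouring genes subtracted, 1 was called higher and 1 lower, and Pcdhb2 (adjusted p = 0.0563) and Pcdhb9 (adjusted p = 0.0901) lost their calls. That shift is a running median over 31 genes, which within the cluster are largely protocadherins themselves. A difference they share is thus removed by the subtraction, so the lost calls cannot tell whether these genes differ. Pcdhb2 read 6.96, 6.61, 7.13 and 7.29 in shGFP and 6.23, 6.10 and 6.46 in shLuciferase (0.73 ± 0.15 SE, adjusted p = 0.00577). Pcdhb9 read 4.84, 4.86, 4.82 and 4.68 in shGFP and 4.04, 4.16 and 4.39 in shLuciferase (0.61 ± 0.121 SE, adjusted p = 0.00495), with shLuciferase below the 25th percentile. Leaving out shGFP 1, 3 or 5 left 4 calls each and leaving out shLuciferase 2 left 3. The genes of this cluster are close copies, so probe sets may read more than 1 of them and single values are uncertain. In shTardbp the list lay higher still, at 0.36 to 0.51, against -0.00 to 0.11 in shGFP and -0.12 to -0.04 in shLuciferase.

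Neuronal identity was described with 5 lists. Of 30 measured motor neuron and cholinergic markers, 2 were called higher and 5 lower (23.3%, against 11.1% of all genes; 2 and 4 without shLuciferase 4), with a median of -0.07. Isl1, a LIM homeobox factor of motor and sympathetic neurons, read 8.57, 8.61, 8.74 and 8.73 in shGFP and 7.39, 7.74 and 7.52 in shLuciferase (1.11 ± 0.127 SE, adjusted p = 6.73e-05), without overlap. Slc18a3, the vesicular acetylcholine transporter, read 9.18, 9.20, 9.24 and 9.04 in shGFP and 9.60, 9.58 and 9.69 in shLuciferase (-0.46 ± 0.112 SE, adjusted p = 0.016), from 1 probe set and with the call lost without shLuciferase 4 (adjusted p = 0.0564). The nicotinic receptor subunit Chrna3 read 10.56, 10.76, 10.80 and 10.78 in shGFP and 11.41, 11.32 and 11.65 in shLuciferase (-0.74 ± 0.0941 SE, adjusted p = 0.000177). Chrnb2 (-0.30), Esrrg (-0.41) and Mmp9 (-0.45) were lower and Foxp1 (0.41) higher, and Mmp9 lost its call on leaving out any of 5 arrays.

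The adrenergic and sympathetic neuroblast list leaned to shGFP, with 5 of 20 called higher and 1 lower (30%, against 11.1% of all genes; the same counts without shLuciferase 4). All 6 kept their calls whichever array was left out. Dbh, which makes noradrenaline from dopamine, read 5.59, 5.91, 5.99 and 5.61 in shGFP and 4.46, 4.45 and 4.54 in shLuciferase (1.29 ± 0.102 SE, adjusted p = 3.52e-06), so that in shLuciferase it lay at about the 25th percentile. Chgb, chromogranin B of dense core vesicles, read 10.94, 11.16, 11.27 and 11.33 in shGFP and 9.88, 9.93 and 10.01 in shLuciferase (1.24 ± 0.0919 SE, adjusted p = 1.83e-06). Ddc, the aromatic amino acid decarboxylase, read 6.19, 6.58, 6.46 and 6.60 in shGFP and 5.51, 5.78 and 5.82 in shLuciferase (0.76 ± 0.109 SE, adjusted p = 0.000469). Insm1 was higher by 0.65 and Cyb561 by 0.41, while Gata2 read 10.37, 10.24, 10.36 and 10.17 in shGFP and 10.87, 10.78 and 11.02 in shLuciferase (-0.61 ± 0.0756 SE, adjusted p = 0.000147). Insm1 lost its call when the median over probe sets was used (adjusted p = 0.623). Th, tyrosine hydroxylase, did not pass the test (-0.20 ± 0.0771 SE, adjusted p = 0.121), nor did Phox2a (-0.06) and Hand2 (-0.13).

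Of 36 genes of the neuronal cytoskeleton and differentiation, 5 were called higher and 3 lower (22.2%, against 11.1% of all genes; 5 and 2 without shLuciferase 4). Gap43, of growth cones, read 10.84, 11.03, 10.96 and 10.999 in shGFP and 10.30, 10.36 and 10.45 in shLuciferase (0.59 ± 0.0848 SE, adjusted p = 0.000487), and Mtap2, the microtubule protein MAP2, was higher by 0.49. Tubb3, neuronal tubulin, read 9.51, 9.84, 10.02 and 9.93 in shGFP and 10.42, 10.66 and 10.33 in shLuciferase (-0.65 ± 0.134 SE, adjusted p = 0.00644) from 1 probe set. Nefm, a neurofilament, read 8.16, 8.51, 8.68 and 8.65 in shGFP and 9.10, 8.84 and 9.24 in shLuciferase (-0.56 ± 0.126 SE, adjusted p = 0.0106) and lost its call without shLuciferase 4 (adjusted p = 0.0505), and Nefh was lower by a difference of -0.41, with its call lost when the median over probe sets was used (-0.16, adjusted p = 0.495). Sox11 (0.31), Myt1 (0.37) and Sox2 (0.83) were higher, but the groups were clear of each other in only 1 of 6 probe sets of Sox2 and its adjusted p was 0.975 with the median over probe sets. Nefh, Chmp2b (0.34) and Taf15 (0.47) were the called members among 28 ALS-linked genes, 2 higher and 1 lower (10.7%, near the background), and Chmp2b lost its call on leaving out any of 5 arrays.

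Synaptic vesicle and exocytosis genes, 35 measured, had 4 called higher and 5 lower (25.7%, against 11.1% of all genes). The counts were 3 and 3 without shLuciferase 4, and 5 in all without shLuciferase 2. Scg2, secretogranin II, read 9.80, 9.94, 9.91 and 10.06 in shGFP and 8.70, 8.66 and 8.93 in shLuciferase (1.16 ± 0.0953 SE, adjusted p = 4.92e-06), and Rab3c was higher by 0.69. Cplx1 (-0.56) and Syt7 (-0.51) were lower. Of 42 neurotransmitter receptors, 0 were called higher and 3 lower (7.14%, against 11.1% of all genes; 5 in all without shGFP 2 or without shLuciferase 4). Chrna7 read 9.04, 9.25, 9.31 and 9.16 in shGFP and 9.97, 9.83 and 9.72 in shLuciferase (-0.65 ± 0.0821 SE, adjusted p = 0.000167), and Chrm4 (-0.43, from 1 probe set) and Grin2d (-0.31) were the others. Potassium channels had 1 higher (Kcnj9, 0.54) and 1 lower (Kcnn2, -0.39) of 39 (5.13%, against 11.1% of all genes). Kcnj9 lost its call with the median over probe sets (adjusted p = 0.293). Both group means lay below the 25th percentile of every array in 22 of the 42 receptors and 16 of the 39 potassium channels. Sodium and calcium channels had 4 of 26 higher (15.4%, against 11.1% of all genes), namely Scn3a (0.56 ± 0.107 SE, adjusted p = 0.00358), Cacna2d1 (0.32), Cacna1c (0.32) and Cacna1b (0.27). Only Scn3a kept its call whichever array was left out. That count was 2 without shGFP 1, shGFP 2 or shLuciferase 4 and 1 without shGFP 3, shGFP 5 or shLuciferase 2.

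Extracellular matrix and adhesion genes differed in both directions. Of 66 collagens, proteoglycans and matrix genes, 7 were called higher and 3 lower (15.2%, against 11.1% of all genes; 7 and 4 without shLuciferase 4). Their median difference was -0.01, and in 24 of the 66 both group means lay below the 25th percentile of every array. Dcn, the proteoglycan decorin, read 7.37, 7.76, 7.52 and 7.45 in shGFP and 6.30, 6.42 and 6.42 in shLuciferase (1.14 ± 0.107 SE, adjusted p = 1.43e-05), and Prelp, a related proteoglycan, 6.69, 7.11, 7.19 and 6.83 in shGFP and 5.64, 6.01 and 6.08 in shLuciferase (1.04 ± 0.127 SE, adjusted p = 0.000117). The sulfatase Sulf2, which edits heparan sulfate, read 7.21, 7.26, 7.43 and 7.31 in shGFP and 6.10, 6.17 and 6.29 in shLuciferase (1.11 ± 0.0744 SE, adjusted p = 7.7e-07), and Sulf1 was higher by 0.77. Tnr, the neural matrix protein tenascin R, was higher by 1.06 ± 0.0818 (SE, adjusted p = 2.7e-06), with all 27 probe sets in that direction. Fn1, fibronectin, read 11.36, 11.39, 11.34 and 11.33 in shGFP and 10.51, 10.47 and 10.19 in shLuciferase (0.97 ± 0.101 SE, adjusted p = 3.73e-05), and Lama4 was higher by 0.74. Sparcl1 read 6.33, 6.50, 6.72 and 6.71 in shGFP and 7.49, 7.51 and 7.74 in shLuciferase (-1.01 ± 0.0989 SE, adjusted p = 2e-05), and Sparc (-0.34) and Col18a1 (-0.34) were lower, both losing their call on leaving out any of 4 arrays. In each of the genes given array by array here the groups did not overlap.

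Integrins and cadherins, 28 measured, had 5 called higher and 4 lower (32.1%, against 11.1% of all genes; 5 and 3 without shLuciferase 4). The collagen-binding Itga2 was higher by 0.73 ± 0.116 (SE, adjusted p = 0.00106), with Cdh20 (0.56), the fibronectin receptor subunit Itga5 (0.43), Itga6 (0.40) and Itgb5 (0.37). Cdh13 (-0.69 ± 0.0859 SE, adjusted p = 0.000142), Itgav (-0.60 ± 0.0979 SE, adjusted p = 0.00124), the neural cadherin Cdh2 (-0.38) and Itga9 (-0.22) were lower. Itgb5 and Itga9 lost their calls on leaving out any of 5 to 6 arrays. Of 60 axon guidance genes, 4 were called higher and 7 lower (18.3%, against 11.1% of all genes; 1 and 8 without shLuciferase 4). Leaving out shGFP 3, shGFP 5, shLuciferase 1 or shLuciferase 2 gave 7, 7, 6 and 5 calls. The netrin receptor Unc5b read 9.01, 9.27, 9.07 and 8.96 in shGFP and 10.00, 9.84 and 9.71 in shLuciferase (-0.77 ± 0.0949 SE, adjusted p = 0.000129), Plxnd1 (-0.60) and Ntn3 (-0.54) were lower too, and Slit2 was higher by 0.51 ± 0.0821 (SE, adjusted p = 0.00117).

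Markers of other cells were counted in the same way, beside 11.1% called over all genes. Of 20 fibroblast and mesenchyme markers, 3 were called higher (Dcn, Pdgfrb and Prrx1, the last by 0.69) and 0 lower (15%). The defining fibroblast genes Col1a1 (5.48 and 5.61 in shGFP and shLuciferase), Col1a2 (5.26 and 5.32), Col3a1 (4.78 and 4.79) and Lum (3.46 and 3.55) were not called, Lum lay below the 25th percentile in both lines, and the mean over the 6 fixed fibroblast markers was 5.20 to 5.33 in the shGFP arrays and 5.02 to 5.21 in the shLuciferase arrays. Glia and Schwann markers had 1 higher (Slc1a2, 0.33) and 1 lower (Pdgfra) of 20 (10%), the Slc1a2 call being lost without shLuciferase 2. Muscle, epithelium and endothelium markers had 0 higher and 1 lower (Kdr) of 18 (5.56%). Immune cell markers had 0 called of 14 by limma, with 1 member higher and 1 lower at an unadjusted p under 0.05 (3579 of 15803 over all genes). Cd68, a lysosomal protein of macrophages, had the smallest adjusted p (-0.32 ± 0.125 SE, adjusted p = 0.127) and was called without shGFP 1. Germline and testis genes had 1 higher (Asz1, 0.36) and 1 lower (Tex14, -0.71 ± 0.0731 SE) of 30 (6.67%). Both group means lay below the 25th percentile of every array in 9 of the 14 immune and 20 of the 30 germline genes. The values are of bulk RNA, in which fewer cells with a transcript and less of it per cell cannot be told apart.

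Genes that process hairpins, sense double-stranded RNA or respond to interferon were counted in separate lists. Of 19 genes of hairpin and small RNA processing, 1 was called higher and 1 lower (10.5%, near the background; 0 without shLuciferase 4, shGFP 1 or shGFP 3, and 1 without shGFP 2, shLuciferase 1 or shLuciferase 2). Dicer1, the nuclease that cuts the hairpin, read 8.88, 8.84, 9.002 and 9.02 in shGFP and 9.19, 9.21 and 9.18 in shLuciferase (-0.26 ± 0.0739 SE, adjusted p = 0.039), and Tnrc6c, a partner of Argonaute, 8.77, 8.57, 8.83 and 8.46 in shGFP and 8.27, 8.43 and 7.70 in shLuciferase (0.53 ± 0.147 SE, adjusted p = 0.0333) from 1 probe set. Of 18 sensors of double-stranded RNA, 0 were called higher and 1 lower (5.56%, against 11.1% of all genes). This was Ddx58, the sensor RIG-I, at 6.05, 6.33, 6.43 and 6.36 in shGFP and 6.74, 6.74 and 6.79 in shLuciferase (-0.46 ± 0.102 SE, adjusted p = 0.00905), whose call was lost with the median over probe sets (adjusted p = 0.0959). Interferon-responsive genes divided, with 4 of 28 called higher and 3 lower (25%, against 11.1% of all genes; 2 and 3 without shLuciferase 4). Isg20, an RNA exonuclease, read 8.79, 8.91, 8.73 and 8.72 in shGFP and 7.53, 7.53 and 7.75 in shLuciferase (1.18 ± 0.145 SE, adjusted p = 0.000128), whereas the chemokine Cxcl10 read 6.03, 6.08, 6.29 and 5.77 in shGFP and 6.89, 6.87 and 7.43 in shLuciferase (-1.02 ± 0.163 SE, adjusted p = 0.00105). Dtx3l (0.61), Parp9 (0.35) and Stat2 (0.31) were higher, Apol9b and Samhd1 (-0.53) lower, and Parp9 and Stat2 lost their calls without shLuciferase 4. Antigen presentation had 1 higher (Cd74, 0.44) and 1 lower (Tap2, -0.38) of 15 (13.3%, near the 11.1% of all genes). There were 6 calls without shLuciferase 4 and 1 without any single array of shGFP 1, 3 and 5 or shLuciferase 1 and 2.

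Of 23 p53 targets, 5 were called higher and 0 lower (21.7%, against 11.1% of all genes; 6 and 1 without shLuciferase 4). Beside Gadd45a and Sesn2, these were Ddit4, an inhibitor of mTORC1 that stress and hypoxia raise (10.81, 10.98, 10.77 and 10.91 in shGFP and 10.08, 10.16 and 9.76 in shLuciferase, a difference of 0.87 ± 0.105 SE, adjusted p = 0.000117), Trp53inp1 (0.61) and Mdm2 (0.27, lost on leaving out any of 5 arrays). Gadd45a, Sesn2 and Ddit4 are raised by other stresses too. Of 40 autophagy and lysosome genes, 7 were called higher and 0 lower (17.5%, against 11.1% of all genes; 6 and 0 without shLuciferase 4), though the median was 0.01. Wipi1, which marks forming autophagosomes, read 10.13, 10.15, 10.07 and 10.12 in shGFP and 9.53, 9.56 and 9.34 in shLuciferase (0.64 ± 0.0884 SE, adjusted p = 0.000339), and Map1lc3b (0.52), Gabarapl1 (0.51), Hexa (0.52), Ctsl (0.49), Tmem106b (0.37) and Ulk1 (0.22) followed. Hexa lost its call without shLuciferase 4 and Ulk1 on leaving out any of 5 arrays. Heat shock genes had 1 higher (Cryab, 0.45) and 1 lower (Bag3, -0.50) of 14 (14.3%, near the 11.1% of all genes).

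Glutathione and oxidative stress genes had 1 higher (Gsta3, 0.33) and 3 lower (Nqo1, Gsta4 at -0.75 and Srxn1 at -0.30) of 34 (11.8%, against 11.1% of all genes), with a median difference of -0.10. At an unadjusted p under 0.05 in limma, 2 were higher and 12 lower (3579 of 15803 over all genes). Only Nqo1 kept its call whichever array was left out, and the count was 8 without shGFP 2 and 2 without any one of shGFP 1, 3 and 5 and shLuciferase 2 and 4. Drug efflux transporters, of interest in cells kept in puromycin, had 1 higher (Abca1, 0.25) and 1 lower (Abcb1b, -0.48) of 15 (13.3%, near the 11.1% of all genes). There were 0 calls without shLuciferase 1 or shLuciferase 2 and 1 without shGFP 3, shGFP 5 or shLuciferase 4.

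Cell cycle genes had 1 higher (Nuf2, 0.34) and 1 lower (E2f8, -0.27) of 38 (5.26%, against 11.1% of all genes). Both calls were lost without shGFP 5 or shLuciferase 1, and 1 of them without shGFP 3 or shLuciferase 2. DNA replication had 0 higher and 2 lower of 29 (6.9%; Tyms, -0.32, and Pole, -0.25, the latter lost without shGFP 2, shGFP 5, shLuciferase 1 or shLuciferase 2). Core spliceosome genes had 0 higher and 6 lower of 43 (14%, where 4.82% of all genes were called lower), with a median difference of -0.10. At an unadjusted p under 0.05 in limma, 1 was higher and 11 lower, where 3579 of 15803 genes reached that threshold in either direction. Among the 6 were Sf3b4 (-0.53 ± 0.144 SE), Lsm2 (-0.39 ± 0.0916 SE), Snrnp200 (-0.35 ± 0.0841 SE) and Prpf38a (-0.34 ± 0.102 SE). In that list 1 call was left without shLuciferase 2, and 7 were made without shLuciferase 4. Splicing regulators had 3 higher and 1 lower of 53 (7.55%, against 11.1% of all genes). Cugbp2, now Celf2, read 5.09, 5.21, 5.17 and 5.08 in shGFP and 4.11, 4.19 and 4.20 in shLuciferase (0.98 ± 0.0789 SE, adjusted p = 4.24e-06), with shLuciferase below the 25th percentile. Taf15 and Brunol6 (0.43) were higher and Ptbp1 (-0.27) lower, the last call being lost without shLuciferase 1. Cytosolic ribosomal proteins, of which 19 of 58 listed were measured, had 0 higher and 3 lower (15.8%, against 11.1% of all genes), with 1 call without shLuciferase 2. They were Rpl37 (-0.74) and Rpsa (-0.54), each from 1 probe set, and Rps9 (-0.34), where the groups were clear of each other in 1 of 4 probe sets. Nuclear transport had 0 higher and 2 lower of 39 (5.13%; Nup214, -0.57 ± 0.0644 (SE), and Rae1, -0.34). The respiratory chain and ATP synthase had 0 higher and 1 lower of 37 (2.7%; Uqcrc1, -0.22), a call lost on leaving out any of the 7 arrays, and cholesterol synthesis 1 higher (Lss, 0.26) and 1 lower (Dhcr7, -0.32) of 18 (11.1%), with 0 calls without shGFP 3, shGFP 5 or shLuciferase 1, 1 without shGFP 1 or shLuciferase 2 and 4 without shGFP 2.

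Developmental signalling and immediate early genes complete the lists. Of 57 Wnt genes, 4 were called higher and 2 lower (10.5%, near the background; 4 and 1 without shLuciferase 4). Lef1, a nuclear effector of the pathway, read 8.87, 9.05, 8.98 and 8.92 in shGFP and 8.22, 8.31 and 8.22 in shLuciferase (0.70 ± 0.0811 SE, adjusted p = 7.48e-05), with Wnt10a (0.62), Fzd4 (0.50) and Wnt5a (0.42) higher too. Tcf7 (-0.38) and Lgr5 (-0.33) were lower. Wnt5a lost its call without shLuciferase 2, Tcf7 without shLuciferase 1, and Lgr5 without shGFP 5, shLuciferase 1 or shLuciferase 4. Of 29 Notch genes, 2 were called higher and 2 lower (13.8%, near the 11.1% of all genes; 2 calls without shGFP 1, shGFP 5 or shLuciferase 1). They were Mfng and the ligand Dll1 (0.64 ± 0.119 SE, adjusted p = 0.00313) on one side and Notch1 (-0.36) and its target Hes1 (-0.28) on the other, the last pair losing its calls on leaving out any of 3 to 5 arrays. Of 29 immediate early genes, 4 were called higher and 3 lower (24.1%, against 11.1% of all genes; 4 calls without shLuciferase 2). Fos (0.59 ± 0.0857 SE, adjusted p = 0.000534), Atf3, Nr4a2 (0.44) and Myc (0.42) were higher, and Nr4a3, Klf6 (-0.31) and Zfp36 lower, so that Nr4a2 and Nr4a3 of the same receptor family differed in opposite directions.

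Calls of single genes that rest on how the probe sets were combined are named here together. Of the 154 named genes with a call, 38 lost it in limma when the median over probe sets replaced the mean. They were Tnrc6c, Dicer1, Ddx58, Tap2, Nuf2, E2f8, Gsta4, Gsta3, Dhcr7, Lss, Bnip3, Uqcrc1, Sf3b4, Lsm2, Snrnp200, Ptbp1, Rae1, Nefh, Chmp2b, Insm1, Sox2, Grin2d, Kcnj9, Cacna2d1, Cacna1c, Cacna1b, Pcdhb9, Pcdhb13, Pcdhb8, Dusp2, Nr4a2, Wnt5a, Notch1, Hes1, Hoxd11, Slc1a2, Sars2 and Zfp36.

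**Figure D5:**
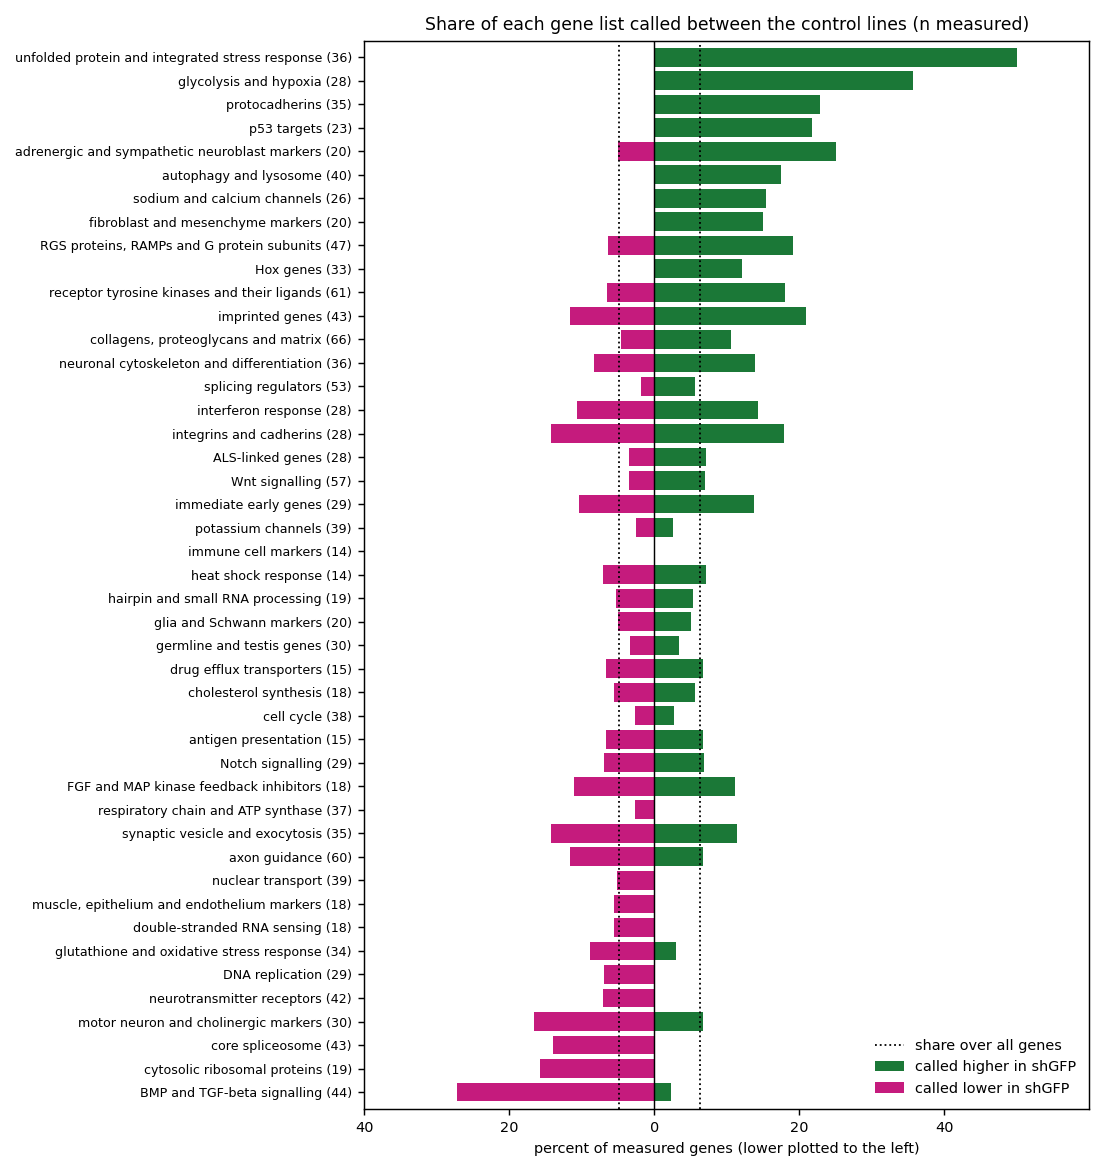
Percent of the measured members of each of the 45 gene lists (vertical axis, number measured in brackets) called higher in shGFP (green, to the right) or lower (magenta, to the left), with dotted lines at the share over all genes (6.26% higher and 4.82% lower). The stress response and glycolysis and hypoxia lists reach 50% and 35.7% to the right, and BMP and TGF-beta signalling reaches furthest to the left.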

How the data were processed

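RNA was amplified and labelled with whole-transcript kits and hybridised to Affymetrix exon arrays, per the labels' protocols. The deposited values are on a log2 scale, 1 per probe set and array, made with Partek and RMA (no versions stated) per the submitters' processing notes. The background and normalization settings and the annotation build were not given in the sources used. Of 194293 probe sets, 179496 had 1 gene symbol, 1328 several and 13469 none. Each gene took the mean of its probe sets with that symbol alone (median 9, at most 115, and 807 genes with 1). This mean lowers the difference of a gene of which only some exons changed.

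A linear model with 3 groups was fitted to the 15803 genes of all 11 arrays with limma 3.58.1 in R 4.3.3 (lmFit, eBayes, no filter on low values), so the shTardbp arrays add to the estimate of the spread. The contrast was shGFP minus shLuciferase, with Benjamini-Hochberg adjusted p over all genes and a threshold of 0.05. Errors are standard errors (SE) of the model or, beside group means, standard deviations (SD), and intervals are 95% intervals of the model. The number of arrays limits the precision. The control arrays also serve in comparisons with shTardbp, so shTardbp values are given only side by side.

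The comparison and the 45 gene lists were chosen with earlier results of these data known, and lists are described by counts and medians only. Named genes were Tardbp, the 15 largest non-overlapping called differences in each direction (no clone or predicted symbols), up to 4 called members per list with the largest differences (or, where 0 were called, the member with the smallest adjusted p), and the ends and 2 largest called genes of each stretch. All other genes were named after their values were seen. Promoters, gene order and current symbols came from RefSeq tables of GRCm38.p6, in which 13727 symbols were current and 2014 matched as synonyms. The promoters shown and the motifs were chosen after the calls were known. Leaving out each array, other normalizations, filters, summaries, weights and blocks were run as alternatives.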

Additional observations from a re-analysis of the deposited data

Results flagged for a closer look

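In groups of 4 arrays, the highest or lowest value of shGFP stood apart from the other 3 in 8 of 162 named genes, by Dixon's test at the 95% level. Chance flags about 1 in 20 independent groups. The named genes share the same arrays and are not independent, so this count cannot tell whether chance accounts for the flags. The array was shGFP 1 in 7 of the 8. Slc7a11 read 10.2 in shGFP 1 and 10.47 to 10.53 in the other shGFP arrays, and Chmp2b read 8.644 against 8.989 to 9.011. Itgav read 6.7 against 7.05 to 7.082, Chrna3 10.56 against 10.76 to 10.8, Snrnp200 9.568 against 9.74 to 9.764 and Bag3 10.03 against 10.11 to 10.12. Cacna1b was higher in shGFP 1, at 8.493 against 8.366 to 8.385. The remaining flag was Pdgfc, at 7.239 in shGFP 2 and 7.357 to 7.374 in the others. In all 8 genes the standing-apart array still lay on the shGFP side of every shLuciferase array. The shLuciferase group, with 3 arrays, could not be tested in this way.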

How the results depend on the processing

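The count of 1752 genes ran from 1204 to 1702 on leaving out 1 array, with 707 to 936 higher, 478 to 816 lower and 82 to 95 at least 2-fold different. With the median of the probe sets in place of the mean, 962 genes were called (594 higher and 368 lower), and 135 were at least 2-fold different. Array weights gave 2916 (1489 higher and 1427 lower), and genes above the median level alone gave 53 at least 2-fold. The cause of these shifts was not tested. With the replicate number as a block there were 1000 calls (632 higher and 368 lower). The labels do not say whether equal numbers mark a shared batch. Not every same-numbered pair deviated together from its group means, which cannot settle whether the arrays were paired. The correlations were -0.06 and 0.26 between shGFP and shLuciferase (numbers 1 and 2), 0.12, 0.20 and 0.20 between shGFP and shTardbp (1, 2 and 3) and 0.07, 0.12 and -0.04 between shLuciferase and shTardbp (1, 2 and 4). Of the named genes, 42 lost the call with the block, namely Mrfap1, Tnrc6c, Dicer1, Tap2, E2f8, Pole, Trp53inp1, Gsta4, Gsta3, Srxn1, Abcb1b, Abca1, Dhcr7, Lss, Bnip3, Uqcrc1, Rpsa, Rps9, Sf3b4, Snrnp200, Prpf38a, Taf15, Ptbp1, Rae1, Chmp2b, Slc18a3, Mmp9, Chrm4, Grin2d, Kcnn2, Cacna2d1, Cacna1c, Cacna1b, Pcdhb13, Pcdhb8, Dusp2, Notch1, Hes1, Asz1, Pdgfra, Slc1a2 and Zfp36. With neighbours subtracted 19 did, namely Dicer1, Tap2, Nuf2, Pole, Srxn1, Dhcr7, Uqcrc1, Rps9, Prpf38a, Chmp2b, Cacna1c, Pcdhb2, Pcdhb9, Pcdhb13, Pcdhb8, Dusp2, Notch1, Slc1a2 and Zfp36. The array code letter as a block is the same fit as leaving out shLuciferase 4. Under the remaining settings each of these counts stayed within 1.5 times its main value. The share of higher genes among those called was 56.5% and ran from 51.1% to 63.2%. Of 162 named genes, 154 were called, 92 kept the call under every setting run, 41 lost it on leaving out an array and 62 under another setting. No called gene reversed. Genes that were not called did. Tardbp went to 0.00101 with array weights and 0.0647 with neighbours subtracted, and on leaving out 1 array ran from -0.0595 to 0.0513. Dennd5b went to -0.0887 with neighbours subtracted. Pcdha7 went to -0.0251 with the replicate block and -0.139 with neighbours subtracted, and ran from -0.0358 to 0.0710 on leaving out 1 array. Pcdhga10 went to -0.00984 with the block and -0.0708 with neighbours subtracted, and ran from -0.0399 to 0.102. Of called genes, 68 had a lower group mean below the 25th percentile, where the signal understates a difference.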

Other observations

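Several genes that belong to no list differed at least 2-fold, and they were named after their values were seen. Among those higher in shGFP were genes known as targets of the integrated stress response. How many of the 61 called genes at least 2-fold higher are such targets was not counted, so the 4 given here are examples. Cth, the cystathionine lyase that makes cysteine, read 10.11, 10.10, 9.92 and 10.09 in shGFP and 8.61, 8.72 and 8.50 in shLuciferase (1.45 ± 0.0801 SE, limma adjusted p = 1.38e-07). Gdf15, a stress-induced hormone, read 9.22, 9.11, 8.63 and 8.91 in shGFP and 7.72, 7.96 and 7.69 in shLuciferase (1.18 ± 0.172 SE, adjusted p = 0.000532). Inhbe, an activin subunit, read 5.74, 5.98, 5.96 and 5.96 in shGFP and 4.81, 4.81 and 5.08 in shLuciferase (1.01 ± 0.0882 SE, adjusted p = 7.76e-06). Ero1l, an oxidase of the ER that hypoxia also raises, read 10.52, 10.61, 10.63 and 10.77 in shGFP and 9.69, 9.47 and 9.59 in shLuciferase (1.05 ± 0.137 SE, adjusted p = 0.000222). In these 4 genes the 4 shGFP arrays lay above the 3 shLuciferase arrays, and in Cth the shTardbp arrays, at 8.52, 8.45, 8.30 and 8.45, lay with shLuciferase.

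Other genes of this kind were of neural, matrix or hormone function. Sox6, a transcription factor of neural and cartilage development, read 6.13, 6.23, 6.36 and 6.28 in shGFP and 4.78, 4.79 and 4.96 in shLuciferase (1.41 ± 0.0737 SE, adjusted p = 1.02e-07). Stc1, the glycoprotein hormone stanniocalcin, read 5.70, 6.04, 5.97 and 6.04 in shGFP and 4.47, 4.48 and 4.52 in shLuciferase (1.45 ± 0.22 SE, adjusted p = 0.00072). Fstl1, a secreted protein related to follistatin, was higher by 1.37 ± 0.0944 (SE, adjusted p = 9.46e-07), while follistatin itself was lower. P2rx3, an ATP-gated channel of sensory neurons, read 10.63, 10.44, 10.45 and 10.45 in shGFP and 9.40, 9.40 and 9.27 in shLuciferase (1.13 ± 0.0826 SE, adjusted p = 1.51e-06). On the lower side, Adam11, a brain-enriched disintegrin, read 5.90, 5.79, 5.91 and 5.74 in shGFP and 6.93, 6.82 and 6.93 in shLuciferase (-1.06 ± 0.0771 SE, adjusted p = 1.51e-06), and Slc8a2, a sodium-calcium exchanger, 5.62, 5.60, 5.53 and 5.35 in shGFP and 6.72, 6.55 and 6.56 in shLuciferase (-1.09 ± 0.0943 SE, adjusted p = 7.76e-06).

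Calls leaned to shGFP on some chromosomes and to shLuciferase on others. On chromosome 16, 84 genes were called higher and 6 lower of 504 (17.9%), and on chromosome 1, 106 higher and 23 lower of 897 (14.4%). On chromosome 6 the counts were 83 and 15 of 888 (11%), and the median differences of these chromosomes were 0.05, 0.02 and 0.02. On chromosome 7, 47 genes were called higher and 95 lower of 1328 (10.7%), and on chromosome 5, 36 higher and 73 lower of 925 (11.8%), with median differences of -0.02 and -0.03. Over all genes 11.1% were called, 6.26% higher and 4.82% lower. The total shares on chromosomes 5, 6 and 7 were thus near that of all genes.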
